A study of Homo sapiens with 3 samples.

Results

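Genes of cholesterol and fatty acid synthesis were followed across 3 RNA sequencing libraries. The labels name HCT116, an established line from a human colorectal carcinoma, for every culture. The members were chosen by name, 31 genes among the 58735 of the deposited table, and all 31 were found. An empty vector control, cells overexpressing wild-type ZEB1 and cells overexpressing ZEB1 K80R, in which a lysine of this zinc-finger repressor is replaced by an arginine, each gave 1 library. The labels give control as the treatment of all 3 cultures, and the vector, its promoter and the number of clones behind each line were not stated there. The title of the series is about NF-κB signalling and epithelial-mesenchymal transition, and does not name lipid synthesis. With 1 library per group there was no spread between cultures to test against, so every difference below is between single libraries. Levels are FPKM, read fragments scaled to gene length and to a library size, which here differs from the sum of the reads. Brackets after a ratio hold its exact 95% counting interval. These intervals cover counting error only.

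Cells make cholesterol from acetyl-CoA by way of mevalonate, farnesyl diphosphate and squalene, and they make fatty acids from the same acetyl-CoA through malonyl-CoA. The transcription factors SREBP-1 and SREBP-2, encoded by SREBF1 and SREBF2, switch on most genes of both routes when sterols are scarce. SCAP escorts them from the endoplasmic reticulum and INSIG1 holds SCAP back when sterols are plentiful. Tumour cells commonly make fatty acids themselves, and the activity of both routes responds to the lipids in the medium.

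ZEB1, the overexpressed gene, had 5.66 FPKM with empty vector, 9.83 with the wild-type form and 10.3 with K80R. Its ratios to empty vector were 1.74 (1.58 to 1.90) and 1.82 (1.66 to 2.0), and the table does not separate the transgene from the endogenous gene. Of 8 colon epithelial markers, 6 had 0 reads in every library, among them EPCAM and CDH1, and only KRT8 and KRT18 had reads, so the labelled cell type lacked most of its defining markers. Markers of adipocytes (4 genes), hepatocytes (3) and steroid-producing cells (3), which have a lipid metabolism of their own, stayed below 1 FPKM in every library, as did PTPRC of leukocytes and PECAM1 of endothelium. All 3 mesenchymal markers were present, with a summed level of 359, 685 and 586 FPKM in empty vector, wild type and K80R. In bulk RNA, a smaller share of cells that express a gene and less of its RNA per cell cannot be told apart. The reads came to 14764535, 14322537 and 13479517 for empty vector, wild type and K80R. Mitochondrial genes took 1.29%, 7.77% and 9.75% of them, and genes with a single read numbered 350, 2705 and 2902. Rescaling the libraries to a common sum of FPKM shifted every gene by −0.46 (wild type against empty vector), −0.44 (K80R against empty vector) and 0.02 (K80R against wild type) on the log2 scale. The part of these library differences in the results was not tested.

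Upstream sequences of 6 members are shown. PMVK and CYP51A1 had the lowest ratios to empty vector, NSDHL one of the highest, and MVK and INSIG1 the lowest ratios of K80R to wild type. SREBF2 was the only member, among those with a window, that matched the sterol element motif TCACCCCAC. Forms of the element beyond this motif and its looser form TCACNCCAC were not searched, so a window without a match may still hold one. Each is the 250 bases before a RefSeq gene start, 5′ to 3′ on the gene's strand, in GRCh38.p14. These starts differ from those of the gene models behind the levels. The windows of MVK, CYP51A1 and PMVK lie inside their gene models, and those of NSDHL, INSIG1 and SREBF2 overlap theirs. Capitals mark matches, on either strand, to CACCTG (an E-box that ZEB1 binds), CCAAT (bound by NF-Y, a partner of SREBPs) and TCACCCCAC (a sterol regulatory element). The windows lie at chrX:152830813-152831062, plus strand (NSDHL), chr7:92134478-92134727, minus strand (CYP51A1), chr1:154936720-154936969, minus strand (PMVK), chr7:155297628-155297877, plus strand (INSIG1), chr12:109573544-109573793, plus strand (MVK) and chr22:41832855-41833104, plus strand (SREBF2).
NSDHL: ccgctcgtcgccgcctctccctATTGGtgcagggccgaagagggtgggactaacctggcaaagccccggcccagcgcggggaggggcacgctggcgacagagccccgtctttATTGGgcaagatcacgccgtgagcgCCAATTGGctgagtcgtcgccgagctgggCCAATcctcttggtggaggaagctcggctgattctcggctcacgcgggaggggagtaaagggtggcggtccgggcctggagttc
CYP51A1: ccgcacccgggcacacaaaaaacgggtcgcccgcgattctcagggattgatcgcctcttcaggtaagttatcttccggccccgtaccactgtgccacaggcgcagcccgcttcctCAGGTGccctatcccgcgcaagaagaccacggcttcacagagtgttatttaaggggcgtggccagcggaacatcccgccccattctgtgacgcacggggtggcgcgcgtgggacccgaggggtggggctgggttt
PMVK: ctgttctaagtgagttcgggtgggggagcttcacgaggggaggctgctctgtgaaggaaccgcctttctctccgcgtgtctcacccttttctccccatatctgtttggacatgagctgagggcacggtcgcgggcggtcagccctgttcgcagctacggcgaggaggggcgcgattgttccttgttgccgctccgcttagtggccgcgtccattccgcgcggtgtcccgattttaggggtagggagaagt
INSIG1: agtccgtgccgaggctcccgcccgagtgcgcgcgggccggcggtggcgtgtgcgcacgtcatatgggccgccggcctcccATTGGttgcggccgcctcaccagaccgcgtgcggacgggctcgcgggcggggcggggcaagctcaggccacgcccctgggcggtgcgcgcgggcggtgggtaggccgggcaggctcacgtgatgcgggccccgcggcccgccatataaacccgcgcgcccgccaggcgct
MVK: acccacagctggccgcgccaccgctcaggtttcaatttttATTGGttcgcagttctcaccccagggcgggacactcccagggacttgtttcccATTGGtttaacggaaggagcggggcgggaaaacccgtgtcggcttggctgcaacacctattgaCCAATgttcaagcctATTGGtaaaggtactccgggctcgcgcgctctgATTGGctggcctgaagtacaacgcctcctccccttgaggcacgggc
SREBF2: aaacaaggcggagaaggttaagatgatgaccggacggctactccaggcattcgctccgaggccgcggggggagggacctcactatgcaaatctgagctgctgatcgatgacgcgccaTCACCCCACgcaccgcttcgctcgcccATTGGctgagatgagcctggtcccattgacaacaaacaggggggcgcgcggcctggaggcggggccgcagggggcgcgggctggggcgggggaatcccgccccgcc

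RefSeq starts were matched for 27 members with 36 starts in all, and not for ACAT2, FASN, FDFT1 and SQLE. CCAAT was present in 63.9% of the 36 member windows and in 32.0% of all 35116 windows of the table, which include those of noncoding genes. NSDHL and MVK held 5 copies each and MSMO1 held 4, and PMVK and CYP51A1 held none, like ELOVL6, FADS1 and FADS2 among the genes counted as higher and AACS, SCAP and SREBF1. GGGCGG, the core of an Sp1 site, was in 88.9% of member windows against 42.6%. The ZEB1 E-box was in 7 of the 36 member windows, or 19.4%, against 17.5% of all windows. These 7 belonged to AACS, ACACA, CYP51A1, EBP, HSD17B7, SC5D and TM7SF2, of which CYP51A1 and AACS were lower, and HSD17B7 and SC5D higher, in the wild-type library than in the empty vector library. The sterol element TCACCCCAC was found in 1 member window against 0.362% of all windows, and its looser form TCACNCCAC, which takes in the strict one, in the same single window against 0.883%. A match is a description of these letters and not evidence of binding.

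All 31 members passed the filter of a mean of 1 FPKM over the libraries, which 12605 genes of the table passed. Levels ran from 2.55 to 337 FPKM in the empty vector library, from 1.41 to 526 in the wild-type library and from 2.09 to 505 in the K80R library. The most abundant was SCD, the desaturase that makes oleate and palmitoleate, which ranked 56th, 38th and 27th of 10372 protein-coding genes in empty vector, wild type and K80R. FASN followed at rank 73, 77 and 86. MSMO1, at 160, 106 and 94, was the highest gene of the cholesterol route. The least abundant were TM7SF2 and AACS.

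**Figure D1:**
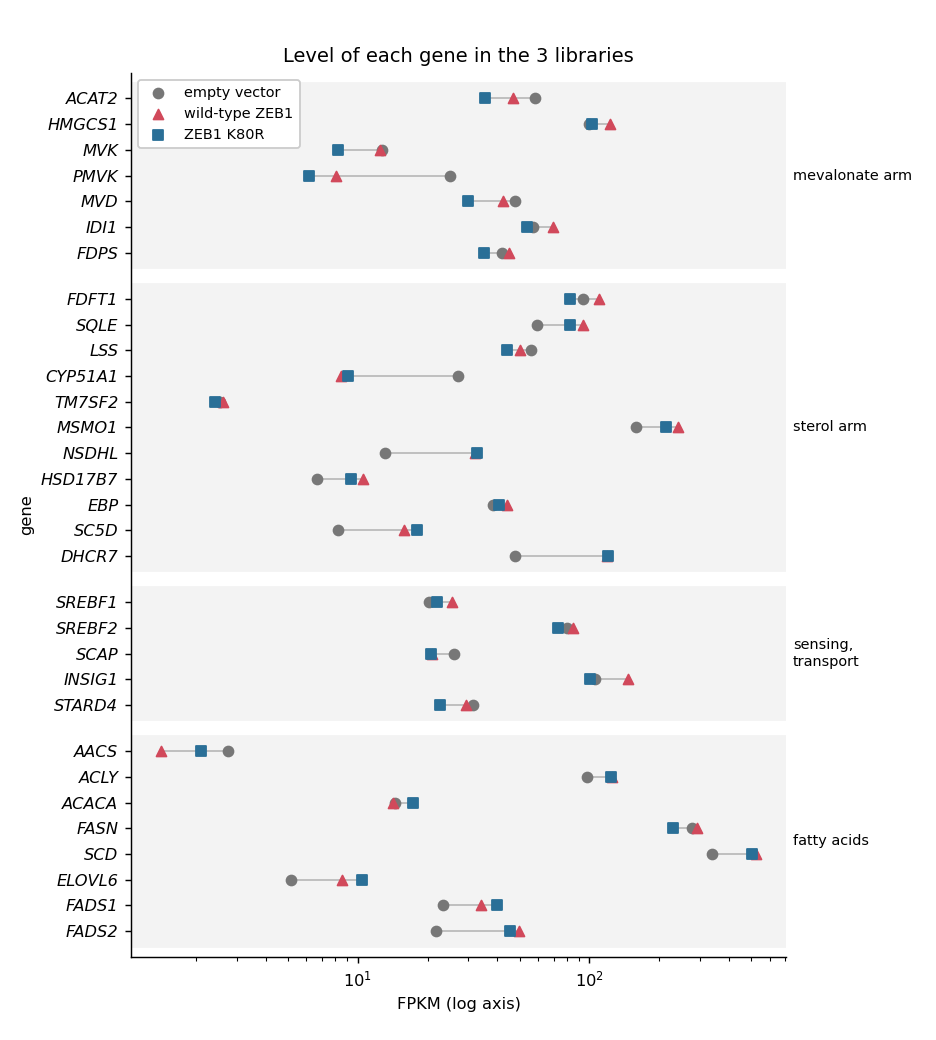
FPKM of each of the 31 genes (log axis) in the empty vector (circle), wild-type ZEB1 (triangle) and ZEB1 K80R (square) libraries, grouped by role, with a line joining the lowest and highest. SCD and FASN are the highest genes, and the longest lines are those of PMVK, CYP51A1, NSDHL and DHCR7, where the empty vector library stands apart from the other libraries.

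A gene was counted as higher or lower where the ratio of FPKM + 1 between 2 libraries was at least 1.5 either way. In wild type against empty vector, 9 of the 31 members were higher and 3 were lower, where 14.2% of all 12605 compared genes were higher and 11.1% were lower. At a common sum these counts were 3 higher and 7 lower, with 5.92% and 33.2% of all genes. In K80R against empty vector, 6 members were higher and 4 were lower, where 12.6% of all compared genes were higher and 13% were lower. Rescaled in the same way, they were 4 higher and 12 lower, with 5.49% and 32.9% of all genes. The share of lower members was thus close to the background in both comparisons as deposited. At a common sum without mitochondrial genes, wild type had 4 higher and 3 lower, with 12.0% and 13.4% of all genes, so the share of higher members was then close to the background.

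In the mevalonate arm, 3 of the 7 genes were lower in K80R than in empty vector and none was higher, and in wild type 1 was lower and none was higher. The median difference of log2(FPKM + 1) was −0.57 for K80R and −0.02 for wild type. At a common sum, which moved the median of all genes to −0.36 and −0.37, these were −0.98 and −0.44, with 5 and 3 genes lower.

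PMVK, the kinase that adds the second phosphate to mevalonate (ENSG00000163344; GRCh38, chromosome 1, 154924734 to 154936991), had 25.1 FPKM in empty vector, 8.04 in wild type and 6.16 in K80R, from 510, 142 and 105 reads. Both overexpression libraries were far below empty vector, at ratios of 0.32 (0.26 to 0.39) and 0.25 (0.20 to 0.30). PMVK has the shortest gene model of the members, 1280 bases, and shares no exon base with another gene. MVD, which decarboxylates the resulting diphosphate to isopentenyl diphosphate (ENSG00000167508; chromosome 16, 88651935 to 88663161), had 47.7, 42.4 and 29.8 FPKM. Its ratio to empty vector was 0.89 (0.84 to 0.93) in wild type and 0.62 (0.59 to 0.66) in K80R, so it was low in the K80R library. MVK, mevalonate kinase (ENSG00000110921; chromosome 12, 109573255 to 109598117), had 12.7, 12.5 and 8.18 FPKM. Wild type and empty vector were alike within counting error, at 0.99 (0.91 to 1.07), and K80R was at 0.65 (0.59 to 0.71) of empty vector, just short of the threshold once 1 was added. ACAT2, the cytosolic thiolase of the first step (ENSG00000120437; chromosome 6, 159760328 to 159779055), had 58.0, 46.7 and 35.5 FPKM, with ratios to empty vector of 0.80 (0.77 to 0.84) and 0.61 (0.58 to 0.65), and only the second was counted as lower. Opposite-strand genes, among them SOD2 and TCP1, share 52.3% of its exon bases. The sources used here do not say whether reads were counted by strand, so its level is uncertain. TCP1, a chaperonin subunit, stood at 155, 81.6 and 74.2 FPKM.

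HMGCS1, the synthase that makes HMG-CoA (ENSG00000112972; chromosome 5, 43289395 to 43313512), was the most abundant of the arm, with 99.2, 123 and 102 FPKM. It was highest in wild type, at 1.24 (1.2 to 1.28) times empty vector, a ratio that was 0.90 at a common sum. IDI1, the isopentenyl diphosphate isomerase, had 57.2, 69.8 and 53.7 FPKM, and FDPS, which makes farnesyl diphosphate, had 41.9, 45.0 and 35.1. Both had their highest deposited value in wild type and their lowest in K80R, but at a common sum wild type was below empty vector, at 0.89 for IDI1 and 0.78 for FDPS. Opposite-strand RNAs share 15.0%, 14.8% and 18.6% of the exon bases of HMGCS1, IDI1 and FDPS.

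The sterol arm, from squalene synthesis to cholesterol, was divided. Against empty vector, 6 of its 11 genes were higher and 1 was lower in wild type, and 3 were higher and 1 was lower in K80R. Its median difference was 0.59 in wild type (0.15 at a common sum) and 0.42 in K80R (−0.01 at a common sum). The counts there were 2 higher and 2 lower in wild type, and 3 and 3 in K80R.

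DHCR7, the reductase of the last step of cholesterol synthesis by one of its routes (ENSG00000172893; chromosome 11, 71428193 to 71452868), had 47.8, 119 and 119.8 FPKM in empty vector, wild type and K80R. Both overexpression libraries were above empty vector, at ratios of 2.49 (2.38 to 2.59) and 2.51 (2.40 to 2.62). NSDHL, which takes part in removing the C4 methyl groups of sterols (ENSG00000147383; chromosome X, 152830967 to 152869729), had 13.1, 32.0 and 32.5 FPKM, from 415, 882 and 865 reads. Its ratios were 2.45 (2.18 to 2.76) and 2.49 (2.21 to 2.80). SC5D, the sterol C5 desaturase (ENSG00000109929; chromosome 11, 121292453 to 121308694), followed the same order, with 8.20, 15.9 and 18.0 FPKM and ratios of 1.94 (1.77 to 2.13) and 2.20 (2.01 to 2.41). These 3 genes share no exon base with another gene in the annotation.

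SQLE, squalene epoxidase, a rate-limiting enzyme of the sterol arm, had 59.1, 93.9 and 82.2 FPKM. It was counted as higher in wild type, at 1.59 (1.53 to 1.65), and lay within range in K80R, at 1.39 (1.33 to 1.45). MSMO1, the C4 methylsterol oxidase, had 159, 242 and 214 FPKM and passed in wild type at 1.53 (1.48 to 1.57), with 1.35 (1.30 to 1.39) in K80R. HSD17B7, the 3-ketosteroid reductase of the C4 demethylation complex, had 6.68, 10.5 and 9.30 FPKM. It passed narrowly in wild type, and the level of its pseudogene HSD17B7P2, at 2.72, 5.82 and 5.08 FPKM, makes its share of reads uncertain. None of these 3 genes reached the threshold between the overexpression libraries. All 3 calls in wild type ended at a common sum, with ratios of 1.16 for SQLE, 1.11 for MSMO1 and 1.15 for HSD17B7, and also at a common sum without mitochondrial genes.

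CYP51A1, the lanosterol 14-demethylase (ENSG00000001630; chromosome 7, 92112151 to 92134803), went the other way, with 27.1 FPKM in empty vector, 8.45 in wild type and 9.07 in K80R. Its reads numbered 1544, 418 and 433, and its ratios to empty vector were 0.31 (0.28 to 0.35) and 0.33 (0.30 to 0.37). Other genes, 2 of them on the same strand, share 83.2% of its exon bases. Reads there may be assigned to none of them, which makes its level uncertain. FDFT1, squalene synthase, had 93.8, 110.4 and 82.0 FPKM, and LSS, the cyclase that forms lanosterol, had 55.9, 50.2 and 44.0. EBP, a sterol isomerase, had 38.5, 44.0 and 40.8, and TM7SF2, a C14 sterol reductase, had 2.55, 2.62 and 2.42. These 4 lay within 1.5-fold in every comparison of deposited values, while at a common sum LSS was lower in both and FDFT1 in K80R.

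Of the 5 genes that sense and carry sterols, none reached 1.5-fold in any comparison of the deposited values. Their median was 0.08 in wild type against empty vector (−0.38 at a common sum, with 1 gene lower) and −0.13 in K80R (−0.56, with 2 genes lower). SREBF2, for the SREBP of cholesterol synthesis (ENSG00000198911; chromosome 22, 41833079 to 41907308), had 80.2, 84.6 and 73.3 FPKM, and SREBF1 (ENSG00000072310; chromosome 17, 17810399 to 17837002) had 20.2, 25.5 and 22.1. SREBF2 thus stood at 3.96, 3.32 and 3.32 times SREBF1 in the same order. SCAP had 25.9, 20.9 and 20.7 FPKM, and the sterol carrier STARD4 had 31.5, 29.3 and 22.7. INSIG1 (ENSG00000186480; chromosome 7, 155297776 to 155310235), itself an SREBP target, had 105, 147 and 100.1 FPKM. It stood out in the wild-type library, at 1.39 (1.35 to 1.44) times empty vector, a ratio that was 1.01 at a common sum.

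Among the genes of fatty acid synthesis, those for desaturation and elongation were higher in 1 or both overexpression libraries, while the carboxylase and the synthase lay within 1.5-fold. Only FADS2 of these was still counted as higher at a common sum, and FASN was lower in K80R. Of the 8 genes, 3 were higher and 1 was lower in wild type, and 3 were higher and none was lower in K80R. The medians were 0.44 and 0.46, or −0.01 and 0.03 at a common sum, where 1 gene was higher and 1 lower in wild type, and 1 and 2 in K80R.

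FADS2, the delta-6 desaturase of polyunsaturated fatty acid synthesis (ENSG00000134824; chromosome 11, 61792980 to 61867354), had 21.7, 49.7 and 45.6 FPKM. Its ratios to empty vector were 2.29 (2.20 to 2.38) and 2.10 (2.02 to 2.19), with both overexpression libraries well above the control. FADS1, the delta-5 desaturase beside it on the opposite strand, had 23.4, 34.0 and 39.9 FPKM. It lay within range in wild type, at 1.45 (1.39 to 1.52), and was higher in K80R, at 1.70 (1.63 to 1.77). Exon bases shared with other genes came to 4.89% for FADS2 and 5.57% for FADS1. ELOVL6, which extends palmitate to stearate (ENSG00000170522; chromosome 4, 110045846 to 110199199), had 5.14, 8.58 and 10.4 FPKM. It was higher in both, at 1.67 (1.5 to 1.86) and 2.02 (1.82 to 2.24).

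SCD (ENSG00000099194; chromosome 10, 100347124 to 100364834) had 337, 526 and 505 FPKM, from 28739, 38923 and 36106 reads. It was counted as higher in wild type, at 1.56 (1.54 to 1.58). In K80R its ratio was 1.498 (1.48 to 1.52), just short of the threshold. In wild type the ratio was 1.14 at a common sum and 1.48 without mitochondrial genes, which ends the call. In K80R it was 1.10 and 1.58, the latter past the threshold. FASN, fatty acid synthase (ENSG00000169710; chromosome 17, 82078333 to 82098332), had 277, 292 and 229 FPKM, so SCD stood at 1.22, 1.80 and 2.21 times FASN. ACLY, which supplies cytosolic acetyl-CoA from citrate, had 97.6, 126 and 124, and ACACA, the acetyl-CoA carboxylase, had 14.4, 14.2 and 17.3. AACS, which activates acetoacetate for lipid synthesis, was the lower gene in wild type, with 2.76, 1.41 and 2.09 FPKM and a ratio of 0.51 (0.45 to 0.58). Its pseudogene AACSP1 had 0.782, 0.965 and 1.71 FPKM, so its reads are uncertain as well.

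**Figure D2:**
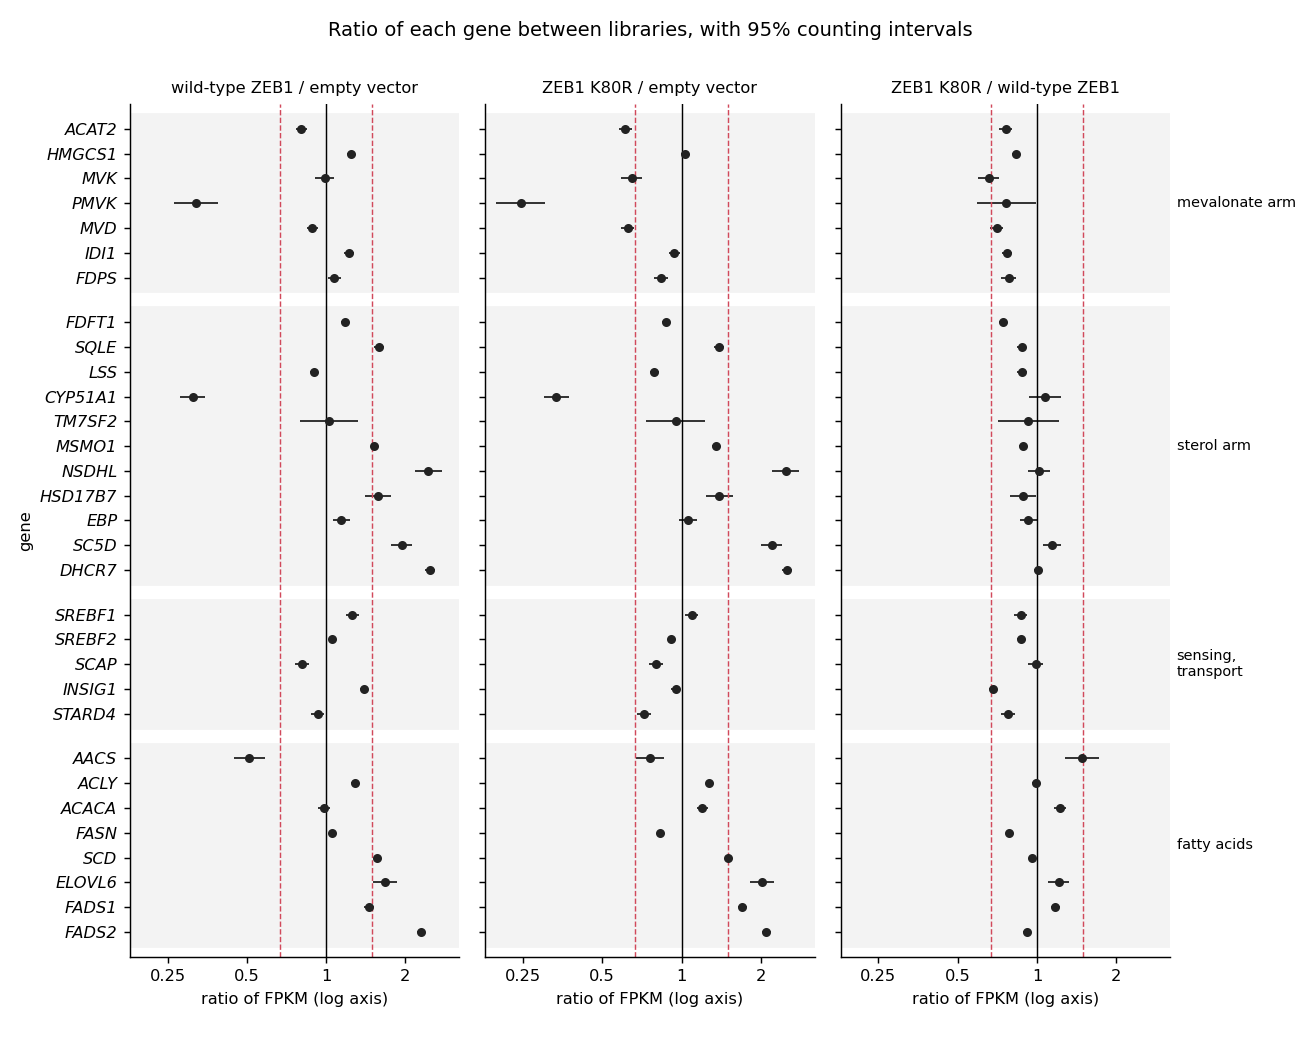
Ratio of FPKM (log axis) of each of the 31 genes in the 3 comparisons, with 95% counting intervals as bars, a solid line at 1 and dashed lines at a 1.5-fold ratio. PMVK and CYP51A1 lie far to the left and DHCR7, NSDHL, SC5D and FADS2 to the right in both comparisons with empty vector, and all 7 genes of the mevalonate arm lie left of 1 for K80R against wild type.

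Both comparisons with empty vector share that library, so their likeness is not independent. DHCR7, ELOVL6, FADS2, NSDHL and SC5D were counted as higher, and CYP51A1 and PMVK as lower, in both. Rescaled to a common sum, ELOVL6 was counted in neither, at ratios of 1.22 and 1.49, and SC5D in K80R alone. HSD17B7, MSMO1, SCD and SQLE were higher and AACS was lower in wild type alone by this count. FADS1 was higher and ACAT2 and MVD were lower in K80R alone. Passing in one library and not in the other does not show a difference between them. For the 31 members the median difference was 0.23 in wild type (−0.22 at a common sum) and −0.05 in K80R, while all compared genes had medians of 0.01 (−0.37 at a common sum) and 0.00.

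Set directly against wild-type ZEB1, no member was counted as higher and none as lower in the K80R library, where 4.42% and 5.18% of all compared genes were. The member differences ran from −0.56 to 0.36 on the log2(FPKM + 1) scale with a median of −0.18, against −0.02 for all genes. All 7 mevalonate arm genes lay below 1, at ratios from 0.65 for MVK to 0.83 for HMGCS1, and HMGCS1 was at 0.92 at a common sum without mitochondrial genes. INSIG1 was at 0.68 (0.66 to 0.71), MVD at 0.70 (0.66 to 0.75) and FDFT1 at 0.74 (0.72 to 0.77). FASN was at 0.78 (0.77 to 0.80).

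In the deposited values, the counting interval lay below 1 for 20 of the 31 members and above 1 for 5. The same held for 29.5% and 24.2% of all compared genes. Intervals narrow with the number of reads, so abundant genes meet this criterion more often at the same ratio. A common sum without mitochondrial genes shifts every log2 ratio of K80R to wild type by 0.16. The ratio itself was then below 1 for 17 members and above 1 for 14, so the split depended on the scaling. The 5 genes with a deposited interval above 1 were SC5D, AACS, ACACA, ELOVL6 and FADS1. AACS had the highest ratio, 1.49 (1.28 to 1.72), from 313 and 449 reads. DHCR7 and NSDHL had equal deposited levels within counting error, at 1.01 (0.98 to 1.04) and 1.02 (0.92 to 1.12). By role, the median differences were −0.37 for the mevalonate arm, −0.11 for the sterol arm, −0.20 for sensing and transport and 0.10 for fatty acid synthesis. They were −0.22, 0.03, −0.05 and 0.26 at a common sum without mitochondrial genes, where the median of all genes was 0.11.

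Ratios between genes of the same library do not depend on how libraries are scaled. The summed FPKM of the sterol arm was 1.5 times that of the mevalonate arm in empty vector, 2.10 times in wild type and 2.42 times in K80R. DHCR7 stood at 3.77, 9.50 and 14.7 times MVK, and at 0.48, 0.96 and 1.17 times HMGCS1. These gene pairs were chosen with the values known, so the order of the libraries in them is a description. NSDHL stood at 0.48, 3.79 and 3.59 times CYP51A1, with the overlap of the latter in mind.

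Other genes of lipid metabolism were read from 6 further lists. The shares of all compared genes given above for the members are the background for these counts too. Among 16 measured genes of cholesterol synthesis, uptake and regulation beside the members, 3 were higher in wild type and 5 in K80R than in empty vector, and none was lower. None was higher and 2 were lower in each at a common sum, and the list medians were 0.13 and 0.26 as deposited and −0.30 and −0.14 at a common sum, where those of all genes were −0.37 and −0.36. INSIG2, the paralogue of INSIG1, had 12.8, 20.8 and 11.3 FPKM, and was the gene of this list that was lower in K80R than in wild type, at 0.54 (0.49 to 0.60). The scavenger receptor SCARB1 had 3.99, 6.57 and 6.95. ERLIN1 and ERLIN2, which act in the degradation of HMG-CoA reductase, had 12.8, 17.6 and 22.1 and 7.92, 12.0 and 14.6.

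Among 18 measured further genes of fatty acid synthesis, elongation and activation, 6 were higher in wild type and 7 in K80R than in empty vector, and none was lower. Rescaled to a common sum, 3 and 2 were higher and 2 and 3 were lower. TECR, the last reductase of the elongation cycle, had 5.75, 20.8 and 20.9 FPKM, with the highest ratio of K80R to empty vector among the genes of these lists and members that passed the filter, 3.64 (3.30 to 4.02). HACD3, a dehydratase of the same cycle, had 12.6, 17.7 and 27.5. Between the overexpression libraries 2 genes were higher and 3 lower in K80R, and the count of lower genes was 0 at a common sum without mitochondrial genes. The 3 lower genes supply substrates: the citrate carrier SLC25A1 had 52.9, 65.8 and 40.1 FPKM, malic enzyme ME1 had 34.1, 39.3 and 25.1, and the acetyl-CoA synthetase ACSS2 had 16.2, 26.6 and 16.8. Their ratios of K80R to wild type were 0.61 (0.56 to 0.66), 0.64 (0.59 to 0.69) and 0.63 (0.59 to 0.68).

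HILPDA, a hypoxia-induced lipid droplet protein that inhibits triglyceride breakdown, had 7.39, 29.9 and 4.86 FPKM, from 243, 855 and 134 reads. Among the list genes that passed the filter it had the lowest ratio of K80R to wild type, 0.16 (0.13 to 0.19). In its list of 11 measured glycerolipid and droplet genes, 2 were higher in wild type than in empty vector and none was lower, and in K80R none passed either way (3 and 4 were lower at a common sum, and 1 and 0 higher). Of 13 measured genes of fatty acid oxidation, none passed against empty vector (2 in wild type and 6 in K80R were lower at a common sum), and ACADS was the 1 that was lower in K80R than in wild type, from 43 and 98 reads. Of 14 measured genes of cholesterol traffic and efflux, 2 were higher in wild type and 1 in K80R, with the lysosomal lipase LIPA, at 12.1, 21.3 and 24.4 FPKM, in both. None of the 14 was higher at a common sum, and 3 and 2 were lower. These shares are close to or below those of all genes. Of 8 isoprenoid genes, 2 were lower in wild type and 1 in K80R. Rescaling to a common sum gave 3 lower genes in each. NUS1, a subunit of the dolichol synthase, was lower in both, with 30.8, 15.2 and 15.3 FPKM.

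**Figure D3:**
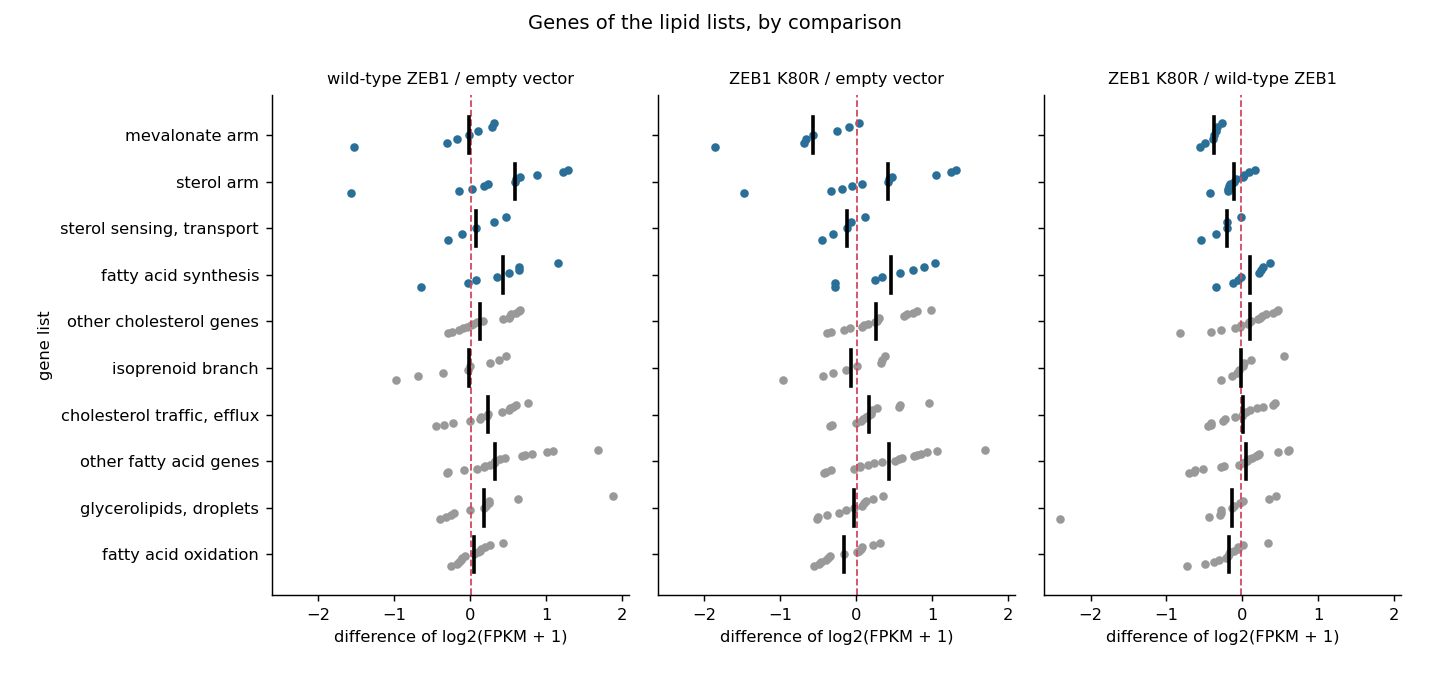
Difference of log2(FPKM + 1) of each measured gene (points) of the 4 member groups (blue) and 6 further lipid lists (grey) in the 3 comparisons, with list medians as black bars and the median of all 12605 compared genes as a dashed line. The median of the mevalonate arm lies left of the dashed line in both comparisons of K80R, at −0.57 and −0.37, and HILPDA is the leftmost point for K80R against wild type, at −2.40.

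The direction of the smaller differences from empty vector depended on the scaling of the libraries. At a common sum, 11 of the 31 members were above 1 for wild type against empty vector, compared with 21 in the deposited values. For K80R these were 9 and 15. For K80R against wild type, 10 were above 1 at a common sum, 14 at a common sum without mitochondrial genes and 8 as deposited. The genes counted as higher in wild type were DHCR7, FADS2 and NSDHL at a common sum, and SC5D as well when mitochondrial genes were left out of the sum.

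**Figure D4:**
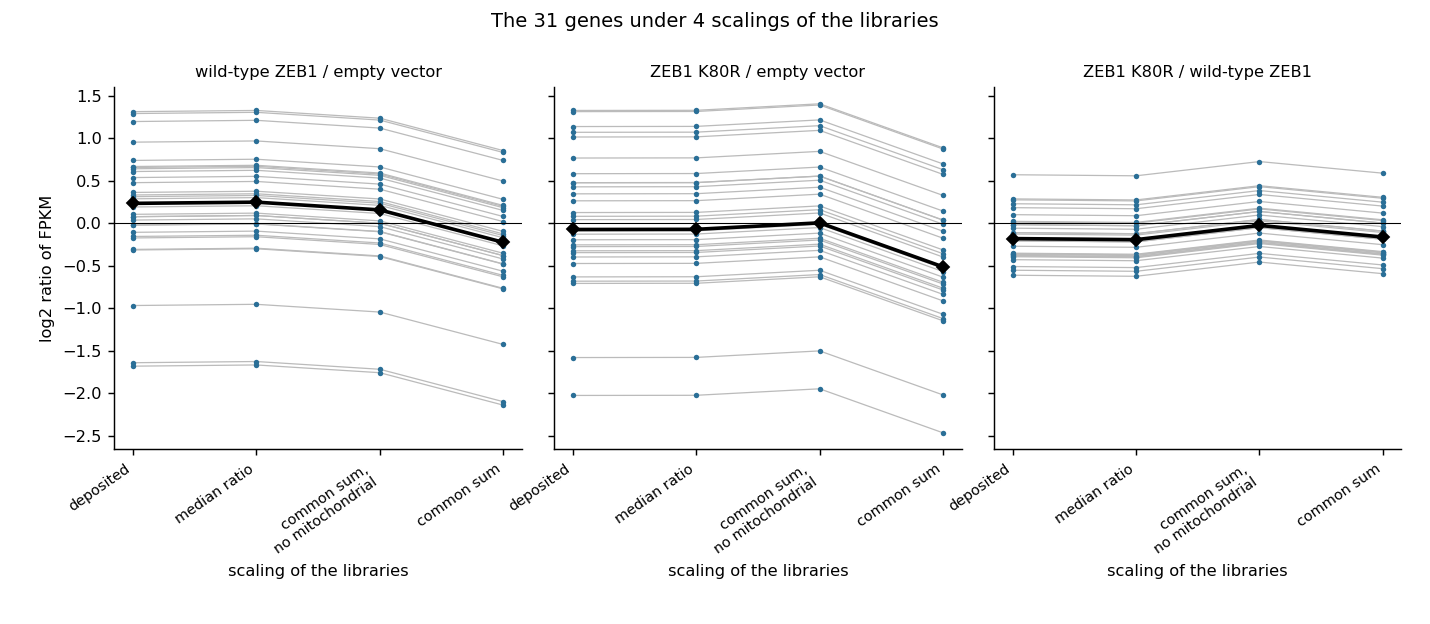
Log2 ratio of FPKM of the 31 genes (blue points joined by grey lines) under the deposited values and 3 rescalings of the libraries, with the median as black diamonds. The median for wild type against empty vector moves from 0.23 to −0.22 at a common sum, while that for K80R against wild type stays between −0.19 and −0.03.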

How the data were processed

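The authors deposited 1 table of FPKM values, gene lengths and coordinates, with 1 column per library named as in the labels. Tools listed without a role, per the submitters' processing notes, were DESeq2 1.20.0, CASAVA and featureCounts 1.5.0-p3, with the build hg38. The aligner and strand setting are not given in the sources used here. All 58735 gene identifiers were found in GENCODE 29 (GRCh38), and 58724 lengths equalled the union of its exons, which gave the exon overlaps. In each library FPKM times length was a whole multiple of 1 step for 100% of genes above 0, within 0.05 reads, which returned the reads. The library sizes that these steps imply were 15886593, 13795840 and 13321338 for empty vector, wild type and K80R. They differ from the sums of the reads, 14764535, 14322537 and 13479517, and the reason was not tested. The reads served for exact conditional (Clopper-Pearson) 95% intervals, computed in Python 3.11.15 with SciPy 1.17.1. Recovery and intervals were tried on simulated reads, drawn independently of one another with the steps of these libraries. Such reads hold no copies of a molecule and no spread between cultures, so this checks the computation only. It cannot show how well the intervals cover the real libraries. Reads copied from 1 molecule are not independent, so the intervals are too narrow.

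With 1 library per group no test of the conditions was made. Differences are of log2(FPKM + 1) among genes whose FPKM averaged 1 or more, and ratios are of FPKM with no pseudocount. A difference on the log2(FPKM + 1) scale understates that of low genes. Alternatives were pseudocounts of 0.1 and 5, minimum means of 0.1 and 5 or none, a 2-fold threshold, the mean of the members and 3 rescalings. The members, lists and settings were chosen with earlier results of these data known. Named genes were all members, up to 3 genes per further list and comparison with the largest difference, and label checks. Some genes that this rule names are not reported here. The rule for genes with a profile like that of the members was not used because the members share no direction. PLIN2 and its neighbours, and the partner gene TCP1 and pseudogene HSD17B7P2, were named after their values were seen.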

Additional observations from a re-analysis of the deposited data

How the results depend on the processing

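No group has a replicate, so neither leaving out a library within a group nor a fit of the spread could be run. No paired analysis was possible because each group has 1 library. At a common sum of FPKM, wild type against empty vector had 3 members higher, 7 lower and a median of −0.22, while K80R against empty vector had 12 lower and a median of −0.39. The medians of all genes were then −0.37 and −0.36. At a common sum without mitochondrial genes, wild type against empty vector had 4 members higher with a median of 0.16, the median of K80R against empty vector was 0.0037, and that of K80R against wild type was −0.025. The latter scaling moved the median of all genes for K80R against wild type to 0.11. With a 2-fold threshold 3 members were higher and 2 lower in wild type than in empty vector (5.47% and 3.78% of all genes), and 4 were higher and 2 lower in K80R (4.92% and 4.45%). The median of K80R against empty vector turned to 0.042 when genes had to average 5 FPKM or more, and to 0.042 as a mean over members. With a pseudocount of 0.1, MVK became the 1 member lower in K80R than in wild type. The other alternatives left each count within 1.5 times of the reported one and gave medians of 0.19 to 0.28 for wild type against empty vector, −0.07 to −0.02 for K80R against empty vector and −0.19 to −0.15 for K80R against wild type. Of the 93 member ratios, 62 moved beyond their counting interval at a common sum and 59 at one without mitochondrial genes. Scaling by the median ratio shifted genes by no more than 0.014 on the log2 scale and so says little about stability. TM7SF2, with 110 to 138 reads, and PMVK had the widest intervals relative to their ratios.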

Other observations

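PLIN2, which encodes the coat protein of lipid droplets in most cell types (chromosome 9, 19108375 to 19149290 in GRCh38), was listed at 0 reads in all 3 libraries. For its length, the 3 reads that a 0 still allows correspond to 0.037, 0.043 and 0.044 FPKM in empty vector, wild type and K80R. This limit covers counting error only. Protein-coding genes on both sides of it had reads, with HAUS6 at 15.8, 10.4 and 12.9 FPKM and DENND4C at 4.54, 4.81 and 5.03. PLIN3, another droplet coat protein, stood at 44.8, 52.0 and 38.0 FPKM.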
